A study of Mus musculus with 2 samples.

Results

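The mir-200 family, Mir203 and Mir205 are the microRNAs best known from epithelial cells. Here they were followed in mouse heart, where short RNAs of total RNA had been sequenced (microRNA-seq). The 7 genes, Mir200a, Mir200b, Mir429, Mir200c, Mir141, Mir203 and Mir205, were picked by name out of 2202 annotated miRNA genes, with their levels in these libraries already known, so the levels below are a description and carry no test. The 2 libraries form 1 group. Heart tissue was taken from males of the strain B6CASTF1/J, an F1 cross between B6 and CAST parents. The age label gives 36 days, although a free-text label writes months, and no treatment is labelled. They are numbered as biological replicates 1 and 2 and as different males but share a donor record, so n = 2 counts samples whose spread may be partly technical. With 1 group there is no contrast between conditions, and what can be compared is the members with each other and library 2 with library 1.

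MicroRNAs are short RNAs that pair with messenger RNAs through a seed near their 5′ end. The mir-200 family is known for repressing the transcription factors Zeb1 and Zeb2, which themselves repress the mir-200 loci and epithelial adhesion genes such as E-cadherin, a mutual loop that helps hold cells in an epithelial or a mesenchymal state. Mir203 is known from stratified epithelium, where it restrains the stem-cell factor p63, and Mir205 from skin and glandular epithelium. Muscle, endothelium, fibroblasts and blood cells, the main cells of the heart, are not epithelial, while the mesothelium that covers the heart is an epithelium.

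The mature sequences show how close the family members are to each other, which matters for counting them apart. The arm usually taken as the leading one is printed for each gene, from RefSeq on GRCm38.p6, with the seed (bases 2 to 8) in capitals.
miR-200b-3p: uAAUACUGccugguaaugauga
miR-200c-3p: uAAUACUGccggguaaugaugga
miR-429-3p: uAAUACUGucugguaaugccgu
miR-200a-3p: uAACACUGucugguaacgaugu
miR-141-3p: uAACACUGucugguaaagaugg
miR-203-3p: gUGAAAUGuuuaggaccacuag
miR-205-5p: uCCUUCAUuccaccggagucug

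The 5 mir-200 sequences fall into 2 seed groups, Mir200b, Mir200c and Mir429 with AAUACUG, and Mir200a and Mir141 with AACACUG. None of the other mature sequences in the RefSeq table, which holds 1738, carries the seed of any of the 7. Counting positions from the 5′ end, the seed of Mir200a and Mir141 differs from that of Mir200b by U4C, with Mir200b as the reference. Over the 22 compared bases, Mir200c differs from Mir200b by U11G and A22G with Mir200b as the reference, and Mir141 from Mir200a by C17A and U22G with Mir200a as the reference. Mir203 and Mir205 share neither seed nor body with the family or with each other (3 of 22 bases identical in place). Among the hairpins of annotation M21, no member shares an exact stretch of 22 nt with another on either strand, and the longest is 17 nt, between Mir200a and Mir141. RefSeq places a further miRNA opposite Mir203, described with the antisense reads. The counts below can therefore be attributed to single loci as far as the annotated hairpins go, though a read with mismatches could in principle fall on the near copy.

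The family lies in a pair of clusters, both on the minus strand (mm10, annotation M21). Mir200b (chromosome 4, 156055681 to 156055750), Mir200a (156054896 to 156054985) and Mir429 (156053905 to 156053987) sit in an intron of Ttll10, a tubulin ligase-like gene, on its own strand. Mir429 also overlaps an exon of the noncoding transcript Gm13648, in whose intron the other two lie. Mir200c (chromosome 6, 124718322 to 124718390) and Mir141 (124717914 to 124717985) are 337 bp apart in an intron of the noncoding gene Gm15884, and Mir141 also overlaps an exon of Gm29008. The nearest protein-coding genes are Phb2 and Ptpn6. Mir203 (chromosome 12, 112130880 to 112130955, plus strand) overlaps no other gene of the annotation, and the nearest protein-coding gene, Aspg, lies 3321 bp away. Mir205 (chromosome 1, 193507463 to 193507530, minus strand) overlaps an exon of 4631405K08Rik, a long noncoding RNA named Mir205hg in RefSeq.

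Sense reads assigned to any miRNA gene numbered 1999362 in library 1 and 1862526 in library 2. Levels are counts per 1000000 of these reads (CPM), and 3 reads, the limit that a count of 0 allows, equal 1.5 and 1.61 CPM. Each value sums both arms of a hairpin. The mature arms are all about equally long, 21 to 23 bases, so levels are not divided by length. Intervals are exact Poisson or binomial 95% intervals and cover counting error only, without molecular identifiers to tell molecules from PCR copies. The heart labels were checked against cardiac muscle miRNAs: Mir208a, made from the intron of a myosin gene, was at 7004 CPM in library 1 and 3393 CPM in library 2, far above every gene of the set. Mir1a-1, Mir133a-1 and Mir133a-2, which have numbered copies, had only 2 to 6 reads a library, while Mir1a-2 had 115 and 102. Reads mapping to several places are in no gene of these tables.

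All 7 genes had sense reads in both libraries, against 22.0% of annotated miRNA genes. Of assigned reads, the set held 0.0460% in library 1 (interval 0.0431 to 0.0491). In library 2 it held 0.0947% (0.0903 to 0.0992), and the mean was 0.0704% ± 0.0344 (SD, n = 2). Both libraries reached 10 CPM for 5 of the 7, against 11.0% of all 2202 genes. Mir200b and Mir200a were under 10 CPM in library 1. In bulk tissue, few cells with much of an miRNA and many cells with little of it cannot be told apart.

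**Figure D1:**
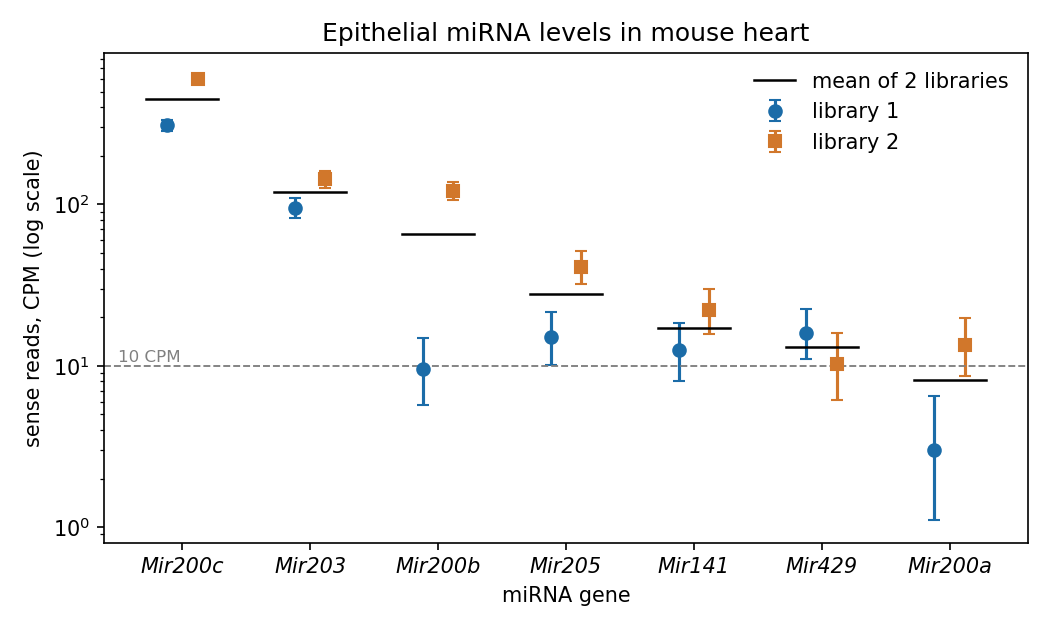
Sense-strand level of each gene (y axis, CPM, log scale) by miRNA gene (x axis), ordered by mean. Circles are library 1, squares library 2, bars the exact 95% counting interval and black lines the mean of the 2 libraries; Mir200c is highest in both, and Mir429 is the gene whose library 2 point is the lower one.

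Mir200c led the set in both libraries. It had 618 reads in library 1 and 1109 in library 2, or 309 CPM (interval 285 to 334) and 595 CPM (561 to 632), a mean of 452 ± 202 (SD, n = 2). That placed it 94th and 83rd among all miRNA genes. It alone gave 67.2% of the reads of the 7 genes in library 1 and 62.9% in library 2.

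Mir141, its cluster partner, had far fewer reads. Its counts were 25 and 41 reads, 12.5 CPM (8.09 to 18.5) in library 1 and 22.01 CPM (15.8 to 29.9) in library 2. Reads of Mir200c outnumbered those of Mir141 by 24.7 to 1 in library 1 (interval 16.6 to 38.5) and by 27.0 to 1 in library 2 (19.8 to 37.9). The ratio thus differed 1.09-fold between the libraries, with a counting interval of 0.631 to 1.86 that spans no difference. This comparison is within a library and does not depend on scaling. Whether both miRNAs were read with equal yield was not tested.

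The cluster on chromosome 4 was lower and much less even. Mir200b had 19 reads in library 1 and 226 in library 2, 9.50 CPM (5.72 to 14.8) and 121 CPM (106 to 138). Mir200a had 6 and 25 reads, 3.00 CPM (1.10 to 6.53) and 13.4 CPM (8.69 to 19.8). Mir429 went the other way with 32 and 19 reads, 16.0 CPM (10.9 to 22.6) and 10.2 CPM (6.14 to 15.9).

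The counting intervals of Mir200b and of Mir200a did not overlap between the libraries, while those of Mir429 did. Across the set, intervals also lay apart for Mir200c, Mir203 and Mir205 and overlapped for Mir141. The share of all genes with intervals apart is not given here, so nothing is read from this. Mir429 had the most reads of its cluster in library 1, 56.1% (interval 42.4 to 69.3), and Mir200b in library 2, 83.7% (78.7 to 87.9). The ratio of Mir200b to Mir429 moved from 0.594 (0.318 to 1.08) to 11.9 (7.44 to 20.1), a 20.0-fold difference with a counting interval of 9.02 to 44.7. The ratio of Mir200b to Mir200a moved from 3.17 to 9.04, and the interval of that 2.85-fold difference, 0.849 to 8.32, includes 1. Mir200a to Mir429 moved from 0.188 to 1.32, by 7.02-fold (2.23 to 24.2). Within the cluster, both ratios that involve Mir429 differed between the libraries by more than counting error. This was not particular to Mir429. The ratios of Mir200c to Mir200b (0.151-fold, 0.0883 to 0.244) and to Mir203 (1.27-fold, 1.02 to 1.58) did so too. So did Mir203 to Mir205 (0.557-fold, 0.338 to 0.900), while Mir200c to Mir141 did not. The share of all gene pairs that differ so is not given. The ratio of Mir200b to Mir200a rested on only 6 Mir200a reads in library 1, and its wide interval does not settle whether it differed.

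As a family the 5 genes had 700 and 1420 reads. The cluster on chromosome 6 gave 91.9% of them in library 1 (interval 89.6 to 93.8) and 81.0% in library 2 (78.8 to 83.0). Sorted by the seed of the leading arm instead of by cluster, the make-up was steady. The AAUACUG group held 95.6% (93.8 to 97.0) and 95.4% (94.1 to 96.4), with the remaining reads on Mir200a and Mir141. Since counts sum both arms, these are shares of loci and not of reads that carry the seed. The leading arm of Mir200b carries the same seed as that of Mir200c, and the seed shares differed by less than their counting error although the locus shares did not.

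**Figure D2:**
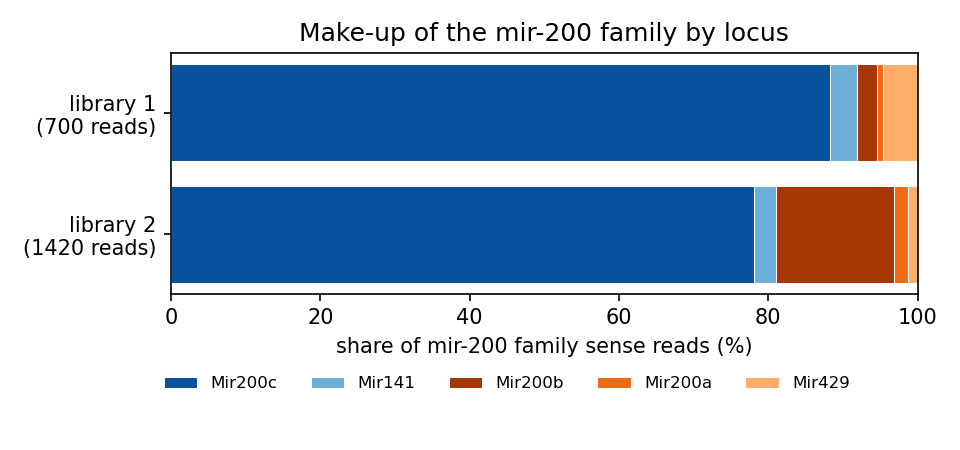
Share of mir-200 family sense reads by locus (x axis, percent) in each library (y axis); blue shades are the chromosome 6 cluster, orange shades the chromosome 4 cluster. The Mir200b segment is 2.71% in library 1 and 15.9% in library 2, and the Mir200c segment 88.3% and 78.1%.

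Mir203 was the next most abundant after Mir200c in each library. It had 190 and 268 reads, 95.03 CPM (82.0 to 109.5) and 144 CPM (127 to 162), a mean of 119 ± 34.5. In library 2 its interval overlapped that of Mir200b. Mir205 had 30 and 76 reads, 15.0 CPM (10.1 to 21.4) and 40.8 CPM (32.1 to 51.1), a mean of 27.9 ± 18.2. Its intervals, like those of Mir203, did not overlap between the libraries. The share of all genes with intervals apart is not given, so nothing is read from this either.

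By mean level the order was Mir200c, Mir203, Mir200b (65.4 ± 79.1 CPM), Mir205, Mir141 (17.3 ± 6.72), Mir429 (13.1 ± 4.10) and Mir200a (8.21 ± 7.37). Mir200c lay above Mir203 by more than their spread. Each later gene in that order differed from the next by less than the larger of their SDs, and Mir429 came next after Mir200c and Mir203 in library 1 but last in library 2. Among all miRNA genes the means ranked from 90th for Mir200c to 273rd for Mir200a.

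**Figure D3:**
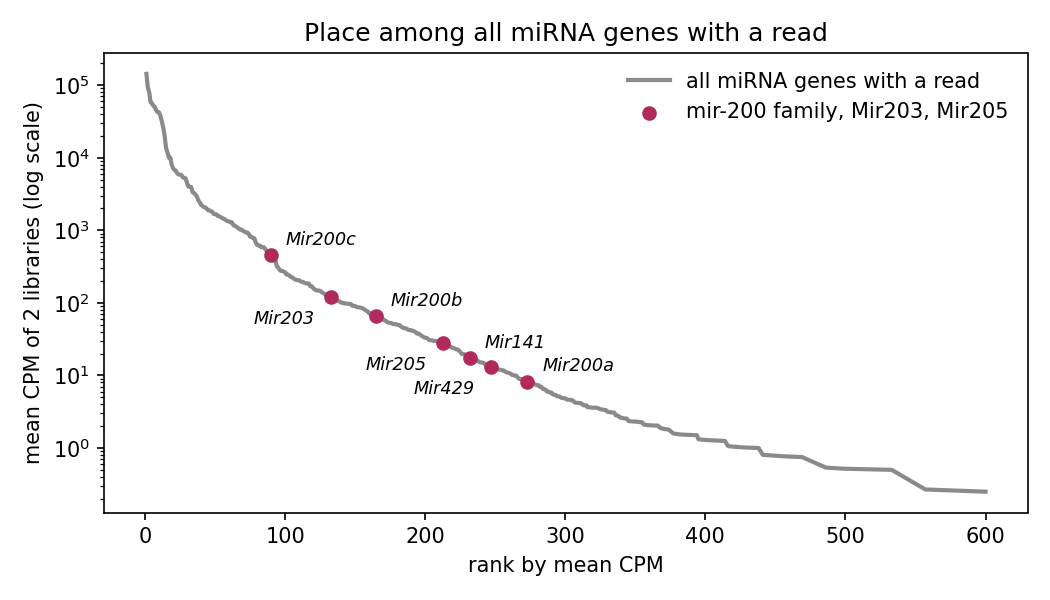
Mean CPM of the 2 libraries (y axis, log scale) against rank by mean CPM (x axis) for every miRNA gene with a read, as a grey line; red points are the 7 genes. Mir200c is at rank 90 with 452 CPM and Mir200a at rank 273 with 8.21 CPM.

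The libraries were then compared gene by gene, as a log2 ratio of library 2 over library 1 with 0.5 added to each count. The ratio was computed for all 344 genes with 10 or more counts summed, and all 7 members passed that filter. With 1 library on each side there is no replicate-based test, and no p is given. Of the members, 6 were higher in library 2 and 1 was lower, with a median log2 ratio of 0.95, against 36.6% of the 344 genes higher and a median of -0.19. A difference of 2-fold or more was seen for 3 members, each higher in library 2, while 21.2% of the 344 genes differed that much in either direction, with 7.56% upward and 13.7% downward. Among the 184 genes within the level range of the members, 22.3% did so. Since the members were chosen with these values known, nothing is read from these counts.

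Mir200b had the largest ratio of the set, 3.64 on the log2 scale, or 12.8-fold (interval 7.99 to 21.6). Mir200a followed at 2.07 (4.47-fold, 1.79 to 13.3) on few reads, and Mir205 at 1.43 (2.72-fold, 1.76 to 4.30). Mir200c was 1.93-fold higher (1.74 to 2.13), a log2 ratio of 0.95, just inside the 2-fold line. Mir141 stood at 0.80 (interval of the fold 1.05 to 3.02), Mir203 at 0.60 (1.25 to 1.83) and Mir429 at -0.63 (0.341 to 1.16). The last interval includes no difference.

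Scaling decided on which side of 2-fold Mir200c fell. Factors from the trimmed mean of M-values (TMM) added 0.19 to every log2 ratio, and DESeq2 size factors added the same to 2 decimals. Mir200c then reached 1.14 (1.13 with DESeq2 factors), which made 4 members at 2-fold or more, all upward, against 19.2% of the 344 genes in either direction and 9.88% upward. Both scalings shift all genes alike, so they leave the differences between members as they were. Relative to the median gene, the log2 ratios were 3.83 for Mir200b, 2.26 for Mir200a, 1.62 for Mir205, 1.13 for Mir200c, 0.99 for Mir141, 0.78 for Mir203 and -0.45 for Mir429.

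**Figure D4:**
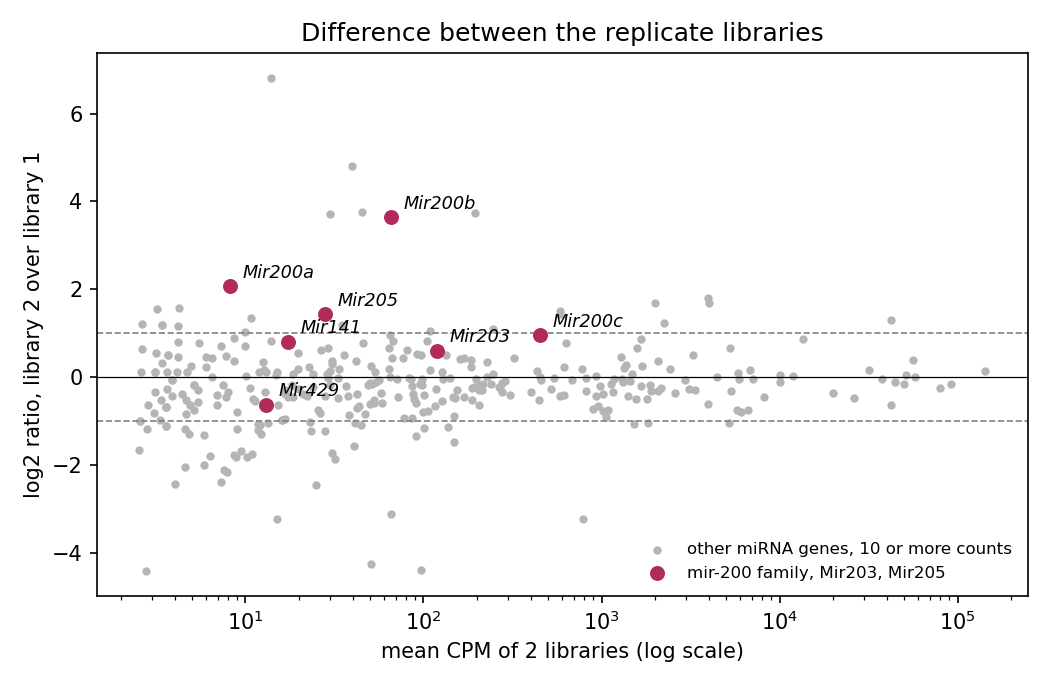
Log2 ratio of library 2 over library 1 (y axis) against mean CPM (x axis, log scale) for the 344 genes with 10 or more counts; dashed lines mark 2-fold. Mir200b, Mir200a and Mir205 lie above the upper line, Mir200c at 0.95 just under it, and Mir429 is the one red point below 0.

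A log2 ratio as high as that of Mir200b or higher was found for 1.74% of the 344 genes. The 5 above it are named here because of their values. They were Mir302c (0 and 52 reads), Mir302a (5 and 143), Mir302b (12 and 156), Mir26a-2 (54 and 675) and Mir302d (8 and 104). Mir26a-2 has a numbered copy, so its count is uncertain. The Mir302 genes are known from pluripotent stem cells. By level in both libraries, the genes nearest to Mir200b were Mir302b (6.0 and 83.8 CPM), Mir302d (4.00 and 55.8 CPM) and Mir205. The measure was the Euclidean distance of log2(CPM + 1) over the 2 libraries, which is thin ground for likeness. Nearest to Mir200c were Mir1839 (316 and 847 CPM), Mir31 (305 and 862 CPM) and Mirlet7c-1 (415 and 456 CPM), and nearest to Mir203 was Mir16-2 (98.5 and 149 CPM). The gene closest to Mir205 was Mir3068 (21.01 and 48.3 CPM), to Mir141 Mir194-2, to Mir429 Mir138-2 (16.5 and 10.7 CPM) and to Mir200a Mir511 (6.0 and 15.6 CPM). Of these nearest genes, Mirlet7c-1, Mir16-2, Mir138-2 and Mir194-2 have numbered copies too, so their counts are likewise uncertain.

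Other miRNAs known from epithelia did not share one direction. Of a list of 10, 9 passed the count filter, 5 were higher in library 2, 1 of them by 2-fold or more, and 2 were lower by 2-fold or more, with a median log2 ratio of 0.07. Mir31, known from skin and many other tissues, was at 305 and 862 CPM (log2 ratio 1.5) and made up most of the list's sum, which was 591 CPM in library 1 and 1114 CPM in library 2. Mir182, of the sensory and epithelial Mir183 cluster, was at 61.0 and 20.4 CPM (-1.57), and Mir375, known from endocrine pancreas and gut, at 17.0 and 4.83 CPM (-1.76). Mir183 was at 18.5 and 20.9 CPM, and Mir96, of the same cluster, had 1 and 2 reads.

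The remaining members with enough reads differed by less than 2-fold. Mir184, known from cornea and skin, was at 92.0 and 80.0 CPM. Of the gut and kidney miRNAs, Mir215 was at 33.5 and 57.4 CPM, Mir192 at 23.5 and 24.7, Mir194-1 at 24.0 and 18.3 and Mir194-2, its numbered copy, at 16.0 and 23.6, so that the counts of these copies are uncertain. The multiciliated list, which marks the ciliated epithelium of airways, summed to 86.5 and 84.3 CPM. It rested on Mir449a (48.0 and 36.5 CPM) and Mir34c (36.5 and 47.2 CPM), with Mir34b at 4 and 1 reads and Mir449b and Mir449c at 0 in both.

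Markers of further tissues also differed between the libraries. Mir122, known from liver, was at 119 CPM in library 1 and 13.4 CPM in library 2. Mir206, known from skeletal muscle, was at 97.0 and 4.83 CPM, with the other skeletal gene Mir133b at 3 and 1 reads. In the neuronal list 5 of 6 genes were at 0 in both libraries. Mir122 and Mir206 were thus higher in library 1, where 6 of the 7 members were lower, and the Mir302 genes were higher in library 2. The part of other tissue or cells in the difference of the 7 genes was not tested.

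Lists of the heart's own cells were compared by their sums, most of which rest on a leading gene. The cardiac muscle list of 7 summed to 8556 and 6697 CPM, the mesenchymal list of 8, led by Mir143, to 44473 and 46709 CPM, and the endothelial pair, nearly all Mir126a, to 48925 and 63819 CPM. The leukocyte list of 4, led by Mir155, summed to 5357 and 4950 CPM, and the erythroid list of 3, led by Mir486, to 2452 and 1970 CPM. Single genes of these lists differed by 2-fold or more as well, in both directions. Of 4 cardiac genes with enough reads, Mir499 was higher in library 2 (log2 ratio 1.23) and Mir208a lower (-1.05). Of 7 mesenchymal genes, Mir21a was higher (1.79), and Mir214 (-1.05) and Mir199a-2 (-1.33) were lower. With TMM scaling Mir208a and Mir214 (both -0.86) no longer reached 2-fold. The 7 epithelial genes, at 460 and 947 CPM, differed 2.06-fold (interval 1.90 to 2.23), and 1.83-fold (1.69 to 1.99) without Mir200b.

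**Figure D5:**
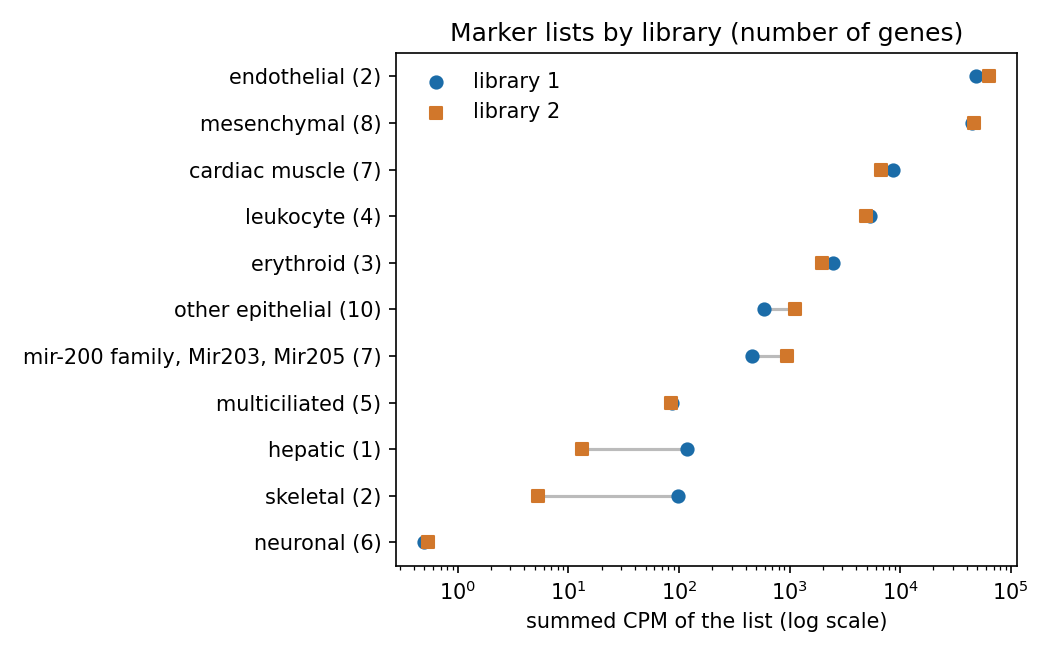
Summed CPM (x axis, log scale) of each marker list (y axis, number of genes in brackets), circles for library 1 and squares for library 2. The 7 epithelial genes lie at 460 and 947 CPM, near the other epithelial list and below the lists of cardiac, vascular and blood cells. The hepatic and skeletal lists are higher in library 1, as are the cardiac muscle, leukocyte, erythroid and, slightly, multiciliated lists.

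The antisense column was near 0 for the set except at Mir203. Mir200c had 0 antisense reads beside 618 and 1109 sense reads, and the upper limits of the interval of that share were 0.595% and 0.332%. Mir200b, Mir429, Mir141 and Mir205 also had 0, and Mir200a had 1 in library 1. Mir203 had 24 antisense reads in library 1, 11.2% of the reads on both strands (interval 7.32 to 16.2), and 2 in library 2, 0.741% (0.0898 to 2.65). These intervals do not overlap.

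Annotation M21 has no miRNA gene opposite Mir203, but RefSeq places Gm51289, which makes miR-203b, on the minus strand of the same stretch of chromosome 12. Its arms are printed with the Mir203 hairpin (mature arms in capitals) because they lie where the antisense reads were counted.
Mir203 hairpin: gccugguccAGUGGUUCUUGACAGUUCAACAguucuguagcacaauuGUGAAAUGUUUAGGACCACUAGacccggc
miR-203b-3p: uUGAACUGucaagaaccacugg
miR-203b-5p: aGUGGUCCuaaacauuucac
In the miR-203b lines the capitals are the seed. The 3p arm spans 112130887 to 112130908 and the 5p arm 112130927 to 112130946, opposite the 5p and 3p arms of Mir203. The tables give no read positions, so whether the 24 reads are miR-203b was not tested. More than 3 antisense reads in a library were found for 2.33% of the 344 genes, and for 0.629% of the 318 with no annotated miRNA gene opposite. Those were Mir203 and Mir122, the latter with 28 and 32 antisense reads.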

How the data were processed

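MicroRNA-seq tables from 2 mouse heart libraries of 1 group were used. The deposited tables hold raw read counts per miRNA gene in 3 columns (both strands, sense, antisense), left unnormalized by the authors; the strand of each column was read from the values. Per the text deposited beside the tables, the assembly was mm10 and the annotation M21. Aligner and counter: not given in the sources used here. All 2202 identifiers matched annotation M21. Of all reads, 41.5% and 42.9% mapped to several places and are in no gene, and 36.5% and 38.1% were assigned sense reads. The 4 status rows were kept out of totals. The members and lists were chosen with earlier results of these data known. Lists, named genes (all members, the 3 nearest genes by level, neighbours, list leaders and epithelial genes at a mean of 10 CPM) and alternatives followed fixed rules. Some genes were named outside these rules. Among them, the genes with ratios above that of Mir200b and the cardiac and mesenchymal genes past 2-fold were named for their values.

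Sense counts were scaled to the assigned sense total. Intervals came from scipy 1.17.1, scaling factors from edgeR 4.0.16 (TMM) and DESeq2 1.42.0. The ratio of libraries uses an exact conditional binomial interval. It was tried only on simulated counts with counting noise and no other spread, so the trial does not bear on differences beyond counting. Over the 344 genes with 10 or more counts the libraries differed beyond counting noise (chi-square 92268, 343 degrees of freedom), so they are not 1 library deposited in duplicate. That does not show that they came from different animals. Sequences came from RefSeq tables on GRCm38.p6, whose hairpin positions equalled those of M21 for all 7 genes.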

Additional observations from a re-analysis of the deposited data

Results flagged for a closer look

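Mir203 had 24 antisense reads in library 1, in a column that the comparisons of levels do not use, which is above the 3 reads that a count of 0 allows. In library 2 there were 2.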

How the results depend on the processing

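Of 61 alternatives to 13 results, 5 moved a value by more than the replicate spread or counting interval or, for a count of genes, by over 1.5-fold. Most of the others say little of stability: TMM and DESeq2 shift all log2 ratios alike by 0.19, pseudocounts bear only on low counts, and with 2 libraries the value of either always lies within 1 SD of the mean. The 5 were the share of the 7 genes, 0.0264% with all reads as the denominator; the genes detected in both libraries, 1 at 100 CPM; the log2 ratio of Mir200c, 1.14 with TMM and 1.13 with DESeq2 scaling; and the members past the fold, 7 at 1.5-fold. The first, second and last follow from the changed denominator or threshold itself. With both strands together 6 genes were detected in both libraries, because the totals of that column are smaller. Leaving out either library gave a share of 0.0460 to 0.0947%, 5 to 7 genes detected, a Mir200c to Mir141 ratio of 24.7 to 27.0, a chromosome 6 share of 81.0 to 91.9% and an AAUACUG share of 95.4 to 95.6% of the family. No paired analysis was possible because there is only 1 group. With 2 libraries and as few as 6 reads for Mir200a, depth limits the low genes most.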
